A study of Homo sapiens with 8 samples.

Results

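The genes described here are 27 genes of sterol synthesis and of the sterol regulatory element-binding protein (SREBP) pathway, taken by gene symbol from a list of known pathway members, out of 58233 genes in the count table. All 27 were found in the table and all passed the filter on low counts in every comparison. RNA-seq libraries were made from MCF10A cells, a non-tumorigenic human breast epithelial line that here carries the H-Ras oncogene, and from RBM6-KO1 cells, a knockout line of RBM6, an RNA-binding splicing factor. Control cells (labelled WT) and RBM6-KO1 cells were left untreated or were given 5 Gy of X-ray ionizing radiation (IR) and collected after 12 h of recovery, with 2 replicates in each of the 4 groups and 8 libraries in all. RBM6-KO1 is 1 clone, grown from a single sorted cell after CRISPR editing with a nickase, so an effect of RBM6 loss and a property of that clone cannot be told apart. Cells of every group carried the H-Ras oncogene and were kept in medium with horse serum, EGF, hydrocortisone, cholera toxin and insulin. Levels are given as CPM, the counts of a gene scaled to the size of its library, after TMM normalization over all 8 libraries. Differences are log2 fold changes with their standard error (SE), tested two-sided by the quasi-likelihood test of edgeR and adjusted over all genes tested by the Benjamini-Hochberg method, and a gene is said to have passed, or to have risen or fallen, where its adjusted p was under 0.05. Each library held between 15355281 and 29832009 counts on genes, replicates of a group correlated across genes at 0.983 to 0.986, and a count of 0 allows at most 3 counts, or 0.101 to 0.195 CPM. RBM6 itself had 66.8 and 68.7 CPM in untreated control and 61.4 and 63.1 in untreated RBM6-KO1 libraries, with 54.5 and 48.9 in control and 44 and 33.9 in RBM6-KO1 libraries after IR, so gene counts do not show the edit.

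Cells make cholesterol from acetyl-CoA. A series of enzymes builds the isoprenoid farnesyl pyrophosphate, squalene synthase joins a pair of these units, and later enzymes close the squalene chain into lanosterol and trim it into cholesterol. Most genes of this route, and those of fatty acid synthesis, are targets of the SREBP transcription factors, which are held in the endoplasmic reticulum membrane with the escort protein SCAP and are kept there by INSIG proteins when sterols are plentiful. When sterols run low, SCAP carries SREBP to the Golgi, where proteases free the part that enters the nucleus. SREBP-2 is known mainly for the sterol genes and SREBP-1 for the fatty acid genes.

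In untreated control cells the members covered a wide range of levels. Per kb of exon, so that genes of different length can be compared, FASN, the fatty acid synthase, had 144 ± 7.10 CPM per kb (SD, n = 2 libraries) and SCD, the stearoyl-CoA desaturase, 107 ± 3.26. These were the highest levels among the members by this measure, and their libraries did not overlap. The length counted every annotated exonic base of a gene, which can exceed the transcript made, so the order of members depends on it. EBP, a sterol isomerase, and MSMO1, a sterol methyl oxidase, followed with 83.5 ± 3.06 and 81.4 ± 8.59 CPM per kb and did not differ beyond their spread. SREBF2, which encodes SREBP-2, had 31.0 ± 0.797 CPM per kb and SREBF1, which encodes SREBP-1, 18.3 ± 0.846. The lowest levels belonged to TM7SF2, a sterol reductase, with 1.85 ± 0.357 CPM per kb and to CYP51A1, the lanosterol demethylase, with 0.285 ± 0.0503. CYP51A1 had only 6 to 115 counts per library, and 74.1% of its exonic bases are shared with other annotated genes, so its level and differences are uncertain.

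In untreated RBM6-KO1 cells, 14 of the 27 members fell relative to control cells and 0 rose. Over all 15556 genes tested in this comparison, 3.73% fell and 2.38% rose. The members and the further lists below were chosen with earlier results of these data known, so such contrasts with all genes are descriptions. The members that fell came from each of 4 role groups: 3 of 7 enzymes from acetyl-CoA to farnesyl pyrophosphate (HMGCS1, MVD and FDPS), 5 of 11 from squalene onward (FDFT1, LSS, TM7SF2, MSMO1 and DHCR7), 3 of 6 regulators and sterol carriers (INSIG1, SREBF1 and STARD4), and all 3 lipogenic enzymes (FASN, SCD and ACACA). At a fold change of at least 2, the threshold that the study used, 5 members were lower (HMGCS1, TM7SF2, DHCR7, FASN and SCD), against 1.97% of all genes tested. DHCR7 at -1.01 and FASN at -1.03 lay just inside this limit, and INSIG1, at a log2 fold change of -0.999, just outside it. Without untreated RBM6-KO1 replicate B 2 members were lower at this limit, without untreated control replicate A 3, and without untreated RBM6-KO1 replicate A 7.

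The median log2 fold change of the 27 members was -0.55, against 0.007 for all genes tested. Of the members, 25 lay below 0, and for 21 both RBM6-KO1 libraries were lower than both control libraries, which held for 23.9% of all genes tested. Taking each RBM6-KO1 library against each control library, the median difference of the members ran from -0.47 to -0.65 on the log2 scale, and 24 to 26 of the 27 were lower. In bulk RNA, fewer cells that express a gene and less RNA of it per cell cannot be told apart. With offsets that removed trends in GC content and gene length, 13 members fell, with a median of -0.51.

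**Figure D1:**
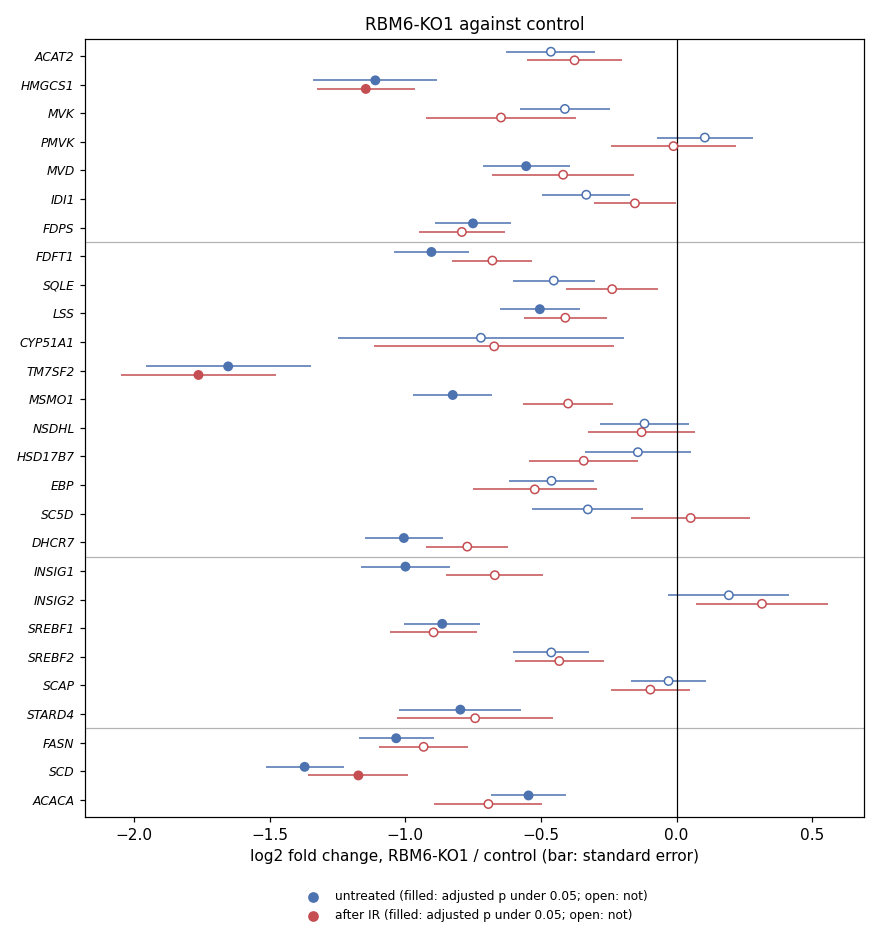
Log2 fold change of each of the 27 members in RBM6-KO1 against control cells, untreated (blue) and after IR (red), with bars for the standard error. Filled points had an adjusted p under 0.05 and open points did not, and 25 of the 27 members lie left of 0 in each comparison.

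Markers of basal breast epithelium were high throughout, at 5104 to 6676 CPM summed over 8 genes. The summed level of 6 luminal markers was 716 to 769 CPM in untreated control and 448 to 565 in untreated RBM6-KO1 libraries, and 463 to 647 and 359 to 434 after IR. It was lower in RBM6-KO1 cells, where EPCAM and KRT18 fell before IR, and ESR1 was among the 2 listed markers that stayed under 1 CPM. The sum of 6 fibroblast markers was 80.9 to 81.5 CPM in untreated control and 119 to 155 in untreated RBM6-KO1 libraries, and 91.0 to 108 and 173 to 211 after IR, while 3 of the 6 stayed under 1 CPM. DCN rose in RBM6-KO1 cells, by 0.91 (edgeR adjusted p = 0.00147, SE 0.16) before IR and 1.11 (edgeR adjusted p = 0.0389, SE 0.18) after IR, whereas COL1A1, another of the 6, was at -0.74 (edgeR adjusted p = 0.0864, SE 0.24) before IR and -1.17 (edgeR adjusted p = 0.0612, SE 0.22) after IR, and PDGFRB at -0.70 after IR, and none of these 3 differences passed. The part of these shifts in the result for the sterol genes was not tested. The 5 adipocyte markers summed to at most 2.06 CPM with ADIPOQ at 0 in every library. Of 4 hepatocyte markers 3 stayed under 1 CPM, and the sum, 118 to 126 CPM in untreated control and 56.8 to 66.7 in untreated RBM6-KO1 libraries, was that of SERPINA1. SERPINA1 fell in untreated RBM6-KO1 cells, at -1.01 (edgeR adjusted p = 0.000295, SE 0.15). Of 4 leukocyte markers 3 stayed under 1 CPM, with CD3E at 0, and the sum was 12.1 to 19.0 and 3.65 to 5.30 CPM. CD14, the remaining marker, fell in untreated RBM6-KO1 cells, at -1.81 (edgeR adjusted p = 0.000373, SE 0.27). No adipocyte, hepatocyte or leukocyte marker passed between the genotypes after IR. The sum of 8 proliferation genes was 933 to 1203 CPM in untreated control and 1256 to 1379 in untreated RBM6-KO1 libraries. After IR it was 638 to 654 CPM in control and 564 to 587 in RBM6-KO1 libraries. The higher untreated sum was not shared by all 8 genes: 4 had log2 fold changes above 0 and 4 below, the median being 0.015. CENPF alone passed, at 0.76 (edgeR adjusted p = 0.00670, SE 0.16). TOP2A at 0.60, MKI67 at 0.46 and AURKA at -0.31 did not pass.

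A sterol regulatory element is a short motif to which SREBP binds, and the CCAAT box, bound by the factor NF-Y, is known to lie near it in promoters of sterol genes. Promoter windows from 250 bases before to 50 after an annotated start, from RefSeq on GRCh38.p14, were at hand for 23 of the 27 members, with several starts for some, and were not used for ACAT2, FDFT1, SQLE and FASN. The CCAAT box (CCAAT, both strands) occurred in the windows of 18 of these 23 members, or 78.3%, against 39.7% of the 27305 genes with a window and 43.6% of the genes that fell in the untreated comparison. A core of the sterol regulatory element (TCACNCCAC, both strands) occurred in 1 member, SREBF2, or 4.35%, against 1.39% of all genes with a window. A match to such short letters is a description of the window. Without a match to this 1 exact pattern in these windows, a sterol regulatory element may still be present. The 30 bases around the CCAAT box nearest before an annotated start are shown for members with a window that fell at least 2-fold in untreated RBM6-KO1 cells. They are also shown for MVD, which fell in untreated RBM6-KO1 cells and, within each genotype, from untreated to irradiated cells. Each is given 5′ to 3′ on the strand of its gene, with the CCAAT box or its reverse complement ATTGG in capitals.
HMGCS1, chr5:43313496-43313525, minus strand: tctaccggccgcgATTGGctgtgggagcca
TM7SF2, chr11:65111785-65111814, plus strand: cccccgagcgccgATTGGctggtgtgctgg
DHCR7, chr11:71448425-71448454, minus strand: gggtccgcctccgATTGGcaggcaatcgct
SCD, chr10:100347034-100347063, plus strand: aaattcccttcggCCAATgacgagccggag
MVD, chr16:88663160-88663189, minus strand: gggctcgcacgggCCAATcctgtggtagcg
The box of HMGCS1 lies 95 bases before the annotated start of its window and that of TM7SF2 69 bases before. In DHCR7 the distance is 43 bases, in SCD 181 bases and in MVD 80 bases. HMGCS1 and DHCR7 each have another window, at another annotated start, with 0 CCAAT matches. The stretch printed for DHCR7 lies inside the gene span given below, so the start it precedes is an internal one. Those printed for HMGCS1 and MVD overlap the upstream end of their spans. SREBF2 was the member with a match to both patterns. The 200 bases before its start are shown because this gene encodes the SREBP of the sterol branch. The sterol regulatory element core and the ATTGG are in capitals.
SREBF2, chr22:41832905-41833104, plus strand: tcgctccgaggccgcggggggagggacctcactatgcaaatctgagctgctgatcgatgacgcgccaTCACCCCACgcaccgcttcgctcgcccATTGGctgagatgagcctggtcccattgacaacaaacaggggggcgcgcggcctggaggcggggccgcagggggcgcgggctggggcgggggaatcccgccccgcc

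Among the enzymes that lead to farnesyl pyrophosphate, HMGCS1, FDPS and MVD fell in untreated RBM6-KO1 cells. HMGCS1 (ENSG00000112972, chr5:43287470-43313512, GRCh38), the cytosolic HMG-CoA synthase of the mevalonate route, had 62.8 and 41.9 CPM in untreated control cells and 30.2 and 18.4 in untreated RBM6-KO1 cells. After IR it had 50.2 and 55.4 CPM in control and 22.6 and 25.0 in RBM6-KO1 cells. All 4 RBM6-KO1 libraries were below all 4 control libraries. The log2 fold change was -1.11 (edgeR adjusted p = 0.00548, SE 0.23) before IR, a 2.16-fold lower level, and -1.15 (edgeR adjusted p = 0.0342, SE 0.18) after IR. FDPS (ENSG00000160752, chr1:155308748-155320666), the farnesyl pyrophosphate synthase, had 145 and 152 CPM in untreated control and 88.8 and 89.4 in untreated RBM6-KO1 cells. Its levels after IR were 150.4 and 132 CPM in control and 85.0 and 76.9 in RBM6-KO1 cells, again without overlap between the genotypes. The difference passed before IR, at -0.75 (edgeR adjusted p = 0.00260, SE 0.14), and after IR it was -0.79 (edgeR adjusted p = 0.0794, SE 0.16), which did not pass.

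MVD (ENSG00000167508, chr16:88651935-88663161), the decarboxylase that makes isopentenyl pyrophosphate, was the only enzyme of this stretch to pass in the IR comparisons as well. It had 119 and 119 CPM in untreated control libraries, 68.0 and 95.7 in untreated RBM6-KO1 libraries, 74.6 and 43.9 in control after IR and 47.9 and 39.9 in RBM6-KO1 after IR. The genotypes did not overlap before IR, with a log2 fold change of -0.55 (edgeR adjusted p = 0.0483, SE 0.16), and overlapped after IR, with -0.42 (edgeR adjusted p = 0.672, SE 0.26). The untreated difference no longer passed under 6 of the 12 alternatives tried, among them those without untreated control replicate A (-0.56), without untreated control replicate B (-0.54) or without untreated RBM6-KO1 replicate A (-0.34), with DESeq2 (-0.55) or with offsets for GC content and length (-0.34). ACAT2, which makes acetoacetyl-CoA, MVK, the mevalonate kinase, and IDI1, the isopentenyl pyrophosphate isomerase, had untreated log2 fold changes of -0.46, -0.41 and -0.33, with adjusted p = 0.116, 0.183 and 0.284 from edgeR. None of the 3 passed, although their RBM6-KO1 libraries were below their control libraries. PMVK, the phosphomevalonate kinase, was at 0.10 and its groups overlapped. Over all 8 libraries ACAT2 ranged from 33.2 to 50.8 CPM, MVK from 17.7 to 43.2, IDI1 from 60.5 to 89.0 and PMVK from 39.0 to 68.0. MVK, too, was lower in irradiated than in untreated libraries without overlap, by 0.35 in control and 0.62 in RBM6-KO1 cells. It did not pass, and its difference from MVD in this was not tested. Such lower levels without overlap after IR held for 9 of the 27 members and 4256 of 15412 genes in control cells. In RBM6-KO1 cells they held for 7 of the 27 members and 4595 of 15598 genes. FDPS lost its untreated call without untreated control replicate B (log2 fold change -0.70). HMGCS1 lost the call after IR under 3 of the 12 alternatives, among them those without irradiated RBM6-KO1 replicate A or B, with -1.08 and -1.22. Other annotated genes share 37.7% of the exonic bases of HMGCS1, 22.2% of those of ACAT2, 18.6% of those of FDPS and 15% of those of IDI1.

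From squalene onward, TM7SF2 had the lowest log2 fold change. This sterol reductase (ENSG00000149809, chr11:65111845-65116384) had 5.46 and 7.18 CPM in untreated control cells and 2.14 and 1.90 in untreated RBM6-KO1 cells, with 10.5 and 7.36 in control and 2.83 and 2.35 in RBM6-KO1 libraries after IR. Every RBM6-KO1 library was below every control library, with 28 to 229 counts per library. Its log2 fold change was -1.65 (edgeR adjusted p = 0.00239, SE 0.30) before IR and -1.76 (edgeR adjusted p = 0.0389, SE 0.29) after IR, or 3.14-fold and 3.39-fold lower levels. Its call after IR was lost under 2 of the 12 alternatives, among them that without irradiated RBM6-KO1 replicate B (-1.64).

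DHCR7 (ENSG00000172893, chr11:71428193-71452868), the reductase that completes cholesterol from 7-dehydrocholesterol, had 140.4 and 127 CPM in untreated control and 68.0 and 66.4 in untreated RBM6-KO1 libraries. The difference was -1.01 (edgeR adjusted p = 0.000249, SE 0.14). After IR the levels were 116 and 112 CPM in control and 64.3 and 69.0 in RBM6-KO1 libraries, a difference of -0.77 (edgeR adjusted p = 0.0727, SE 0.15). The genotypes did not overlap in either state. FDFT1 (ENSG00000079459, chr8:11795573-11839395), the squalene synthase at the branch point to sterols, had 369 and 357 CPM in untreated control and 203 and 189 in untreated RBM6-KO1 libraries, with 343 and 317 in control and 196 and 214 in RBM6-KO1 libraries after IR. Its untreated log2 fold change was -0.90 (edgeR adjusted p = 0.000434, SE 0.14). After IR it was -0.68 (edgeR adjusted p = 0.0995, SE 0.15), which did not pass. MSMO1 (ENSG00000052802, chr4:165327667-165343164), the C4-methyl sterol oxidase, had 249.5 and 215 CPM in untreated control and 141 and 123 in untreated RBM6-KO1 libraries, a difference of -0.83 (edgeR adjusted p = 0.00166, SE 0.15). After IR it had 220.4 and 249.8 CPM in control and 161 and 194 in RBM6-KO1 libraries, and the difference of -0.40 did not pass (adjusted p = 0.433 from edgeR). Both RBM6-KO1 libraries of MSMO1 stayed below both control libraries in each state.

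LSS (ENSG00000160285, chr21:46188141-46228824), which closes the squalene chain into lanosterol, had 97.5 and 102 CPM in untreated control and 74.8 and 66.8 in untreated RBM6-KO1 cells, with 73.7 and 71.5 in control and 53.8 and 54.9 in RBM6-KO1 libraries after IR. It passed narrowly before IR, at -0.50 (edgeR adjusted p = 0.0486, SE 0.15), and not after IR, at -0.41 (edgeR adjusted p = 0.371, SE 0.15). The untreated call was lost under 7 of the 12 alternatives tried, among them those without untreated control replicate A (-0.54), untreated control replicate B (-0.46) or untreated RBM6-KO1 replicate B (-0.41), and with offsets for GC content and length (-0.32). The other 6 enzymes of this stretch did not pass in either state. SQLE, the squalene epoxidase, and EBP had untreated differences of -0.45 (adjusted p = 0.0937 from edgeR) and -0.46 (adjusted p = 0.0988), with both RBM6-KO1 libraries below both control libraries. Another annotated gene shares 36.4% of the exonic bases of EBP. NSDHL and HSD17B7, which act in the removal of the C4 methyl groups, and SC5D, a sterol desaturase, were at -0.12, -0.14 and -0.33 with groups that overlapped. CYP51A1 was at -0.72 with an SE of 0.53. Over all 8 libraries SQLE ranged from 95.4 to 176 CPM, EBP from 62.7 to 152, NSDHL from 34.5 to 45.8, HSD17B7 from 15.8 to 23.1, SC5D from 15.7 to 27.5 and CYP51A1 from 0.408 to 3.70.

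Of the 2 SREBP genes, SREBF1 fell in untreated RBM6-KO1 cells and SREBF2 did not pass, and the difference between these 2 results was not tested. SREBF1 (ENSG00000072310, chr17:17810399-17837002) had 155 and 145 CPM in untreated control and 83.9 and 82.7 in untreated RBM6-KO1 libraries, a difference of -0.86 (edgeR adjusted p = 0.000847, SE 0.14). SREBF2 (ENSG00000198911, chr22:41833105-41907306), whose upstream bases are printed above, had 245 and 254 CPM in control and 193 and 171 in RBM6-KO1 libraries before IR, and 277 and 305 in control and 194 and 235 in RBM6-KO1 libraries after IR. Its RBM6-KO1 libraries were below its control libraries in both states, and its log2 fold changes of -0.46 (edgeR adjusted p = 0.0593, SE 0.14) before IR and -0.43 (edgeR adjusted p = 0.376, SE 0.16) after IR did not pass. SCAP, the escort protein, was at -0.03 before IR (adjusted p = 0.946 from edgeR), with 127 and 132 CPM in control and 125 and 132 in RBM6-KO1 libraries.

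The 2 INSIG genes, whose proteins hold SCAP in the endoplasmic reticulum, gave separate results, a fall of INSIG1 and no pass for INSIG2. INSIG1 (ENSG00000186480, chr7:155297776-155310235), itself a known SREBP target, had 68.5 and 61.3 CPM in untreated control and 35.0 and 30.4 in untreated RBM6-KO1 libraries, a log2 fold change of -0.999 (edgeR adjusted p = 0.000848, SE 0.16). After IR the levels were 42.9 and 42.7 CPM in control and 24.9 and 28.6 in RBM6-KO1 libraries, a difference of -0.67 (edgeR adjusted p = 0.175, SE 0.18). INSIG2, with 10.3 to 19.6 CPM over all libraries, was at 0.19 before IR and 0.31 after IR and its genotypes overlapped. STARD4 (ENSG00000164211, chr5:111496033-111512590), a cytosolic sterol carrier, had 29.0 and 20.1 CPM in untreated control and 16.4 and 12.0 in untreated RBM6-KO1 libraries, with 26 and 42.0 in control and 16.9 and 23.8 in RBM6-KO1 libraries after IR. The untreated difference was -0.80 (edgeR adjusted p = 0.0420, SE 0.22) and that after IR -0.74 (edgeR adjusted p = 0.393, SE 0.29). Its untreated call was lost under 3 of the 12 alternatives, among them those without untreated control replicate A (-0.51) or untreated RBM6-KO1 replicate B (-0.58).

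All 3 lipogenic enzymes fell in untreated RBM6-KO1 cells. SCD (ENSG00000099194, chr10:100347233-100364826), which puts the double bond into saturated fatty acids, had 550.4 and 575 CPM in untreated control and 237 and 202 in untreated RBM6-KO1 libraries, and 487 and 583 in control and 208 and 265 in RBM6-KO1 libraries after IR. Its highest RBM6-KO1 library was far below its lowest control library. The log2 fold change was -1.37 (edgeR adjusted p = 1.07e-05, SE 0.14) before IR and -1.17 (edgeR adjusted p = 0.0342, SE 0.18) after IR, or 2.59-fold and 2.25-fold lower levels. SCD had the smallest adjusted p among the members before IR. Its call after IR was lost under 1 of the 12 alternatives. FASN (ENSG00000169710, chr17:82078338-82098294) went from 1294 and 1387 CPM in untreated control to 678 and 643 in untreated RBM6-KO1 libraries, a difference of -1.03 (edgeR adjusted p = 0.000122, SE 0.14). After IR it had 1094 and 1152 CPM in control and 528 and 644 in RBM6-KO1 libraries, with no overlap and a log2 fold change of -0.93 (edgeR adjusted p = 0.0502, SE 0.16), just over the threshold. ACACA (ENSG00000278540, chr17:37084992-37406836), the acetyl-CoA carboxylase that makes malonyl-CoA, had 148 and 154 CPM in untreated control and 107 and 102 in untreated RBM6-KO1 libraries, a difference of -0.55 (edgeR adjusted p = 0.0241, SE 0.14). With 186 and 226 CPM in control and 108 and 146 in RBM6-KO1 libraries after IR, its difference of -0.69 (edgeR adjusted p = 0.207, SE 0.20) did not pass. The untreated call of ACACA was lost under 3 of the 12 alternatives, among them those without replicate A (-0.58) or replicate B (-0.51) of untreated control cells.

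After IR, 3 members fell in RBM6-KO1 relative to control cells (HMGCS1, TM7SF2 and SCD) and 0 rose, against 0.84% of the 15587 genes tested that fell and 0.372% that rose. All 3 were at least 2-fold lower, as were 0.815% of all genes. The sizes were close to those before IR: the median of the 27 members was -0.52, against 0.015 for all genes, 25 members lay below 0, and for 21 the RBM6-KO1 libraries were below the control libraries, which held for 20.2% of all genes. The untreated comparison and the one after IR share no library. All 14 members that fell before IR lay below 0 after IR, as did 571 of the 574 genes of the whole table that fell before IR and were tested in both, and 3 of the 14 (21.4%) fell again, against 20.4% of those genes. The median of these 14 members was -0.88 before IR and -0.76 after. The number that fell after IR depended on single libraries: it was 1 without irradiated RBM6-KO1 replicate B, 2 without irradiated RBM6-KO1 replicate A, 7 without irradiated control replicate A and 10 without irradiated control replicate B. With genes under 10 counts in any library left out, it was 0 by edgeR, when 71 genes passed in all, and by DESeq2 it was 8. In edgeR, 14 members had an unadjusted p under 0.05 in this comparison. Deviations of same-letter libraries of the 2 irradiated groups correlated at 0.35. With a replicate block more members passed, as given in the last paragraph, but the labels tie no letter to a batch.

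Between irradiated and untreated cells, members passed at a share near that of all genes tested. In control cells 2 members passed, MVD and SREBF1, both lower after IR, and the same 2 passed in RBM6-KO1 cells, also lower. That is 2 of 27 (7.41%) in each genotype. Of all genes, 5.72% of the 15412 tested in control cells and 5.67% of the 15598 tested in RBM6-KO1 cells passed in either direction. The median IR response of the members was -0.06 in control and 0.02 in RBM6-KO1 cells. MVD, whose 8 library values are given above, fell by 1.02 on the log2 scale in control cells (edgeR adjusted p = 0.0269, SE 0.22) and by 0.91 in RBM6-KO1 cells (edgeR adjusted p = 0.0354, SE 0.20). SREBF1 had 104 and 95.5 CPM in control and 56.1 and 50.4 in RBM6-KO1 libraries after IR, each below the untreated libraries of its genotype given above. Its IR response was -0.60 (edgeR adjusted p = 0.0463, SE 0.16) in control and -0.66 (edgeR adjusted p = 0.0419, SE 0.15) in RBM6-KO1 cells, so that the level in irradiated RBM6-KO1 cells was the lowest of the 4 groups. Between the genotypes after IR, SREBF1 differed by -0.90 (edgeR adjusted p = 0.0537, SE 0.16).

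The response of SREBF1 in control cells no longer passed under 3 of the 12 alternatives, among them those without replicate A (-0.57) or replicate B (-0.64) of untreated control cells. In RBM6-KO1 cells it no longer passed under 4, among them those without replicate A (-0.64) or B (-0.67) of untreated cells or replicate B after IR (-0.57). MVD no longer passed there under 3, among them those without replicate B of untreated cells (-0.64) or replicate B after IR (-0.77). The count of members that passed ran from 1, without untreated control replicate A, to 9, without irradiated control replicate A, in control cells, and from 0, without replicate B of untreated cells, to 7, without replicate A after IR, in RBM6-KO1 cells. INSIG1 and CYP51A1 came next in control cells, at -0.61 (adjusted p = 0.0583 from edgeR) and 1.35 (adjusted p = 0.0585), and did not pass. The irradiation itself was plain in the same libraries, where all 6 listed p53 response genes rose in each genotype and their summed level was 677 to 705 CPM in untreated and 2366 to 2557 CPM in irradiated control libraries, and 612 to 625 and 2364 to 2385 CPM in those of RBM6-KO1 cells.

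The difference in IR response between the genotypes was tested as an interaction over all 8 libraries. No member passed, nor did any of the 16549 genes tested by edgeR's quasi-likelihood test (0%). At an unadjusted p under 0.05 there were 0 members and 306 genes in all. The interaction values of the members ran from -0.26 to 0.41 on the log2 scale with a median of 0.04, and the smallest p belonged to MSMO1 (0.41, SE 0.21, unadjusted p = 0.0838 from edgeR). By DESeq2, too, 0 members passed.

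Other genes of the pathway were taken from 6 further lists, and in untreated RBM6-KO1 cells some of their genes fell and none of any of the 6 rose. In the list of sterol uptake and transport GRAMD1B, NPC1, NPC2 and MYLIP fell. GRAMD1B, a protein that moves cholesterol from the plasma membrane to the endoplasmic reticulum, had 77.7 and 56.0 CPM in untreated control and 6.63 and 5.71 in untreated RBM6-KO1 libraries, a 10.9-fold lower level and a larger fall than that of any member. Its log2 fold change was -3.44 (edgeR adjusted p = 1.80e-08, SE 0.21) before IR and -3.15 (edgeR adjusted p = 0.00446, SE 0.21) after IR. NPC1 and NPC2, which release cholesterol from lysosomes, were at -0.86 (edgeR adjusted p = 0.0115, SE 0.20) and -0.94 (edgeR adjusted p = 0.00134, SE 0.16), and MYLIP, a ubiquitin ligase with 15 to 70 counts per library, at -1.54 (edgeR adjusted p = 0.0181, SE 0.38). The untreated call of MYLIP was lost under 2 of the 12 alternatives, among them that without untreated control replicate B (-1.31). That of NPC1 was lost under 1.

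In the list of other lipogenic genes 6 of 20 fell in the same comparison, against 3.73% of all genes tested. FADS2, a fatty acid desaturase, had 123 and 110.03 CPM in untreated control and 38.5 and 42.0 in untreated RBM6-KO1 libraries, a log2 fold change of -1.54 (edgeR adjusted p = 4.55e-06, SE 0.15), and it fell again after IR, by 1.23 (adjusted p = 0.0156 from edgeR). ACSS2, which makes acetyl-CoA from acetate, was at -1.15 (edgeR adjusted p = 0.000100, SE 0.15). ACACB, the mitochondrial acetyl-CoA carboxylase, was at -1.42, the elongase ELOVL5 at -0.80, LPIN1, a phosphatidate phosphatase, at -0.70 and PNPLA3 at -0.72. The call of PNPLA3 was lost under 5 of the 12 alternatives, among them those without untreated control replicate B (-0.58) or of untreated RBM6-KO1 cells (-0.64), and that of LPIN1 under 4, among them those without replicate A (-0.68) or B (-0.71) of untreated control cells or untreated RBM6-KO1 replicate A (-0.60). FADS2 lost its call after IR without irradiated RBM6-KO1 replicate B (-1.20). ELOVL5 lost its untreated call under 1 of the 12 alternatives. In the list of liver X receptor and efflux genes, which holds the receptors themselves, 2 of 8 fell, against the same 3.73%. Among them was ABCG1, a sterol exporter, at -1.44 (edgeR adjusted p = 0.00322, SE 0.28). None of the 10 genes of SREBP processing and none of the 9 of the isoprenoid branch passed in either direction before IR, and at an unadjusted p under 0.05 there was 1 gene in each of the 2 lists by edgeR. The medians of these 2 lists were -0.02 and 0.05, beside -0.55 for the 27 members and 0.007 for all genes. After IR 1 of 11 uptake genes (GRAMD1B) and 1 of 20 other lipogenic genes (FADS2) fell, against 0.84% of all genes, and none of the 6 lists had a gene that rose between the genotypes.

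Some genes of these lists rose after IR. ERLIN2, a part of the machinery that degrades INSIG proteins, rose by 0.76 in control cells (adjusted p = 0.0466 from edgeR) and by 1.06 in RBM6-KO1 cells (adjusted p = 0.0165). ACSL1, a long-chain acyl-CoA synthetase, rose by 0.72 and 0.98 (adjusted p = 0.0359 and 0.0211 from edgeR). FADS1, a fatty acid desaturase, rose in control cells by 0.64 (adjusted p = 0.0359 from edgeR), and MBTPS2, a protease that frees SREBP in the Golgi, and GPAM, a glycerol-phosphate acyltransferase, rose in RBM6-KO1 cells by 0.88 and 0.81 (adjusted p = 0.0419 and 0.0498 from edgeR). PGGT1B, a subunit of a protein prenyltransferase, fell in RBM6-KO1 cells after IR by 0.85 (adjusted p = 0.0488 from edgeR). In control cells the calls of ERLIN2 (0.72), FADS1 (0.63) and ACSL1 (0.68) were lost without replicate A of untreated cells and also without replicate B of untreated cells, and that of ERLIN2 without replicate B after IR (0.54). In RBM6-KO1 cells the calls of MBTPS2 (0.87), GPAM (0.73) and PGGT1B (-0.54) were lost without replicate B of untreated cells, and, among single libraries, those of MBTPS2 (0.62) and GPAM (0.56) also without replicate B after IR. Over all 12 alternatives GPAM lost its call in RBM6-KO1 cells under 5, and ERLIN2 its call in control cells under 5. MBTPS2 and PGGT1B lost theirs in RBM6-KO1 cells under 3 each, and FADS1 in control cells under 3.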

How the data were processed

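TruSeq mRNA libraries of 8 samples were aligned by the authors to hg38, and raw counts per Ensembl gene were deposited as whole numbers without normalization. The submitters' processing notes name STAR and DESeq2. The counting tool, the annotation and the strand setting are not given in the sources used here, so reads from overlapping genes may be shared. GENCODE v44 matched 57392 of the 58233 gene identifiers and gave symbols, positions and exon lengths.

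The counts were tested with edgeR 4.0.16 in R 4.3.3 (TMM, filterByExpr, quasi-likelihood test), each comparison on its own 4 libraries and the interaction on all 8, with DESeq2 1.42.0 as an alternative. The quasi-likelihood fits were tested on simulated data. The standard error is the log2 fold change divided by the square root of F. p-values rest on the spread between 2 biological replicates of a group, which the fit moderates across all genes tested. A count of 0 allows up to 3 counts (counting error only). The members and the lists were chosen with earlier results of these data known. A member that passed is given with every library, the other members by range, and genes of the other lists where they passed. Some genes of those lists are not reported here.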

Additional observations from a re-analysis of the deposited data

How the results depend on the processing

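The median log2 fold change of the members between the genotypes stayed below 0 under every alternative tried, before and after IR. Of 540 repeats of a named gene under an alternative (45 pairs of gene and comparison), 463 kept the call, 77 kept the direction without it and 0 reversed. In the untreated comparison 10 to 17 members passed, and 2 to 7 were called at 2-fold when libraries were left out in turn. After IR the 3 members became 5 with DESeq2's size factors, 8 with DESeq2's Wald test, 9 with no filter, 0 with at least 10 counts in every library (0 also at 2-fold), 11 with offsets for GC content and length, 9 with all 8 libraries in 1 fit, and 1 to 10 (1 to 4 at 2-fold) with libraries left out. The IR count in control cells became 4 with upper-quartile normalization (2 at 2-fold), 4 with no filter, 7 with the offsets, and 1 to 9 (0 to 2 at 2-fold) with libraries left out. In RBM6-KO1 cells it became 4 with no filter (1 at 2-fold), 1 with all 8 libraries in 1 fit, and 0 to 7 (0 to 2 at 2-fold) with libraries left out, when the median ran from -0.065 to 0.118. The interaction gave 0 members throughout. The cause of these shifts was not tested. A group left with 1 library was assumed to vary like the other.

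Replicate letters are shared across groups, but the labels tie no letter to a batch. Deviations of same-letter libraries correlated at 0.079 between the untreated groups and 0.35 between the irradiated ones, and at -0.18 and -0.26 within control and RBM6-KO1 cells, so letters were not taken as pairs. With a replicate block, 17 members passed before IR, 19 after IR, 1 in the IR comparison of control cells and 1 in that of RBM6-KO1 cells. With 2 libraries a group, untreated differences the size of those of SREBF2 and SQLE (-0.46 and -0.45) did not pass, and after IR larger ones, such as FASN at -0.93 and FDPS at -0.79, did not.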
